A study of Mus musculus with 6 samples.

Results

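The small RNAs described here are the L1-like reads of TET1-depleted mouse ESCs and of their scrambled controls, 2 shTet1 libraries against 2 shScr libraries. Each deposited file lists reads that fall inside annotated L1 copies, 1 read per line. The shortest of these copies spans 4999 bp, so shorter L1 copies are not covered here. Reads in 3 copies were dropped, because inserts in these copies that are not L1 sequence hold most of the listed reads (an L1Md_T copy on chromosome 13 and 2 L1Md_F2 copies on chromosome 1). This left 53640 of the 289243 reads of the 4 libraries, in a set of 13683 of the 13686 copies and in 36 classes. The remaining reads numbered 24135 and 22435 in the shScr libraries and 3043 and 4027 in the shTet1 libraries, between 17.1% and 26.3% of the reads listed for each. In all 6 libraries of the series, 77000 of 393511 reads remained.

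The cells were E14 ESCs of 129/Ola background, a feeder-free line grown in serum and LIF. Lentiviral pLKO.1 vectors delivered either a non-targeting hairpin (shScr) or a hairpin against Tet1 (shTet1), and a further 2 libraries of the series came from cells with a hairpin against Tet2 (shTet2). According to the labels, infected cells were put under puromycin (1 µg/ml) after 24 hours and harvested 3 days later, so all groups carry a vector and went through the same selection. Each knockdown is a single hairpin. Reads of Tet1 itself and of ESC marker genes are not part of these files, so neither the depletion nor the cell type was checked here. The labels number the libraries but do not say whether they came from separate cultures, so the spread between them may be technical.

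L1 elements are LINE retrotransposons that move through an RNA copy. A full-length mouse element carries a 5′ UTR that holds its promoter, often built of repeated monomers, followed by ORF1, which encodes an RNA-binding protein, and ORF2, which encodes the endonuclease and reverse transcriptase. L1Md_T (L1Tf), L1Md_A and L1Md_Gf are the young classes that include active elements, and their 5′ ends are where the study looked at TET1. Small RNAs can act on such elements in the form of Dicer products of 21 to 23 nt or of Piwi-interacting RNAs of 24 to 32 nt, and both would be able to pair with L1 transcripts when they come from the antisense strand.

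Positions along the element can be read against primers of the study, which were matched without mismatch to the copies. They are shown because they mark where the 5′ UTR and the reading frames lie in the measurements that follow.
L1A_F: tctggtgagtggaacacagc
L1Tf_F: gcctaagccacagcagca
Orf1_R: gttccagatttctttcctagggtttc
Orf2_F: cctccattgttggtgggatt
The L1A primer lay at a median of 139 bp from the 5′ end of the copy (3097 copies), and the L1Tf primer at 402.5 bp (1746 copies). The Orf1 primer lay at a median of 1053 bp (5564 copies) and the Orf2 primer at 5177 bp (7035 copies). The first 1000 bp of a copy, called the 5′ kilobase below, thus lies mostly upstream of the Orf1 primer site.

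Not every remaining read could be assigned to L1 by its sequence alone. The most frequent read sequences were short, and several of them followed the first bases of 18S ribosomal RNA, whose sequence was taken from chr17:39983298-39983327 of mm9 (plus strand). They are printed because they show what recurs among reads placed in L1 copies, with capitals where a read differs from the chromosome 17 sequence at the same place.
18S start: tacctggttgatcctgccagtagcatatgc
read 2: tacAtggttgatcctgcA
read 6: tacAAggttgatcctgcc
read 7: tacAAggttgatccAgcc
read 8: tacAtggttgatcctgcc
read 10: taccAggttgatcctgcc
read 9: tccggggctgcacgcgT
The numbers give the rank of each sequence among the remaining reads of the 4 libraries. Read 9 aligned further inside the same RNA, from base 1518 of the 18S stretch, and differed from it at 1 base. Reads 8, 9 and 10 fitted 18S RNA as well as their L1 place, whereas reads 2, 6 and 7 fitted their L1 place better. Reads 2, 7, 8, 9 and 10 had 0 exact matches in the genome and differed from their L1 copy at 1 base, whereas read 6 had 17 exact matches. Another 5 of the 12 most frequent reads did not follow 18S RNA.
read 1: caggatcacagaaaaag
read 3: attactctgagacct
read 4: aggatcacagaaaaag
read 5: tctcgcgccgggccg
read 11: gccggcgggagccct
Reads 1, 3 and 4 had 25, 25 and 32 exact matches in the genome, read 11 had 4 and read 5 had 0. Read 12, of 42 nt, is carried by many places in the genome and is not printed.

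A larger part of the L1-like reads came from the 5′ ends of copies in TET1-depleted cells than in control cells, although the test could not reach the threshold. Reads with their midpoint in the 5′ kilobase made up 32.4% and 33.6% of the shScr libraries, with Wilson limits (95%) of 31.8 to 32.95 and 33.02 to 34.3. In the shTet1 libraries they made up 40.8% (39.1 to 42.6) and 36.7% (35.2 to 38.2). Both shTet1 libraries thus lay above both shScr libraries, with no overlap of the counting intervals. The means were 32.995% ± 0.899 (SD, n = 2) for shScr and 38.8% ± 2.93 (SD, n = 2) for shTet1, a difference of 5.78 percentage points, which was above either SD. A two-sided exact permutation over libraries gave p = 0.333, and a design of 2 against 2 can give none smaller. Within the replicate numbers of the labels the difference was 8.49 and 3.07 percentage points. In the shTet2 libraries the shares were 34.5% and 33.8%, above both shScr libraries and below both shTet1 libraries. The Wilson limits take in only the error of counting reads and not the spread between libraries. They may be too narrow even for that, because reads copied from 1 molecule by PCR cannot be recognised.

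The difference lay in the first 500 bp. That stretch held 19.2% and 20.6% of the reads in shScr and 27.7% and 23.1% in shTet1, a difference of 5.53 percentage points with no overlap between groups (larger SD 3.26, exact permutation p = 0.333). The shTet2 libraries had 23.6% and 21.4% there, both also above the shScr libraries and 1 of them above replicate 2 of shTet1. From 500 to 1000 bp the libraries were alike in level, with 13.1% and 13.1% in shScr and 13.1% and 13.6% in shTet1. Reads past 4 kb, which is within ORF2 or beyond it in a full-length copy, made up 21.9% and 22.1% in shScr and 20.1% and 18.8% in shTet1, lower in both shTet1 libraries by 2.53 percentage points on average (larger SD 0.871, exact permutation p = 0.333). As shares of the same total, these values are not independent of the share in the first 500 bp. Among copies with 1 match to each of the Orf1 and Orf2 primers (4245 copies), reads upstream of the Orf1 primer site made up 36.2% and 37.5% in shScr and 50.3% and 42.2% in shTet1, and in the shTet2 libraries 40.6% and 42.1%, again above both shScr libraries. A higher 5′ share was thus not seen in shTet1 alone.

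**Figure D1:**
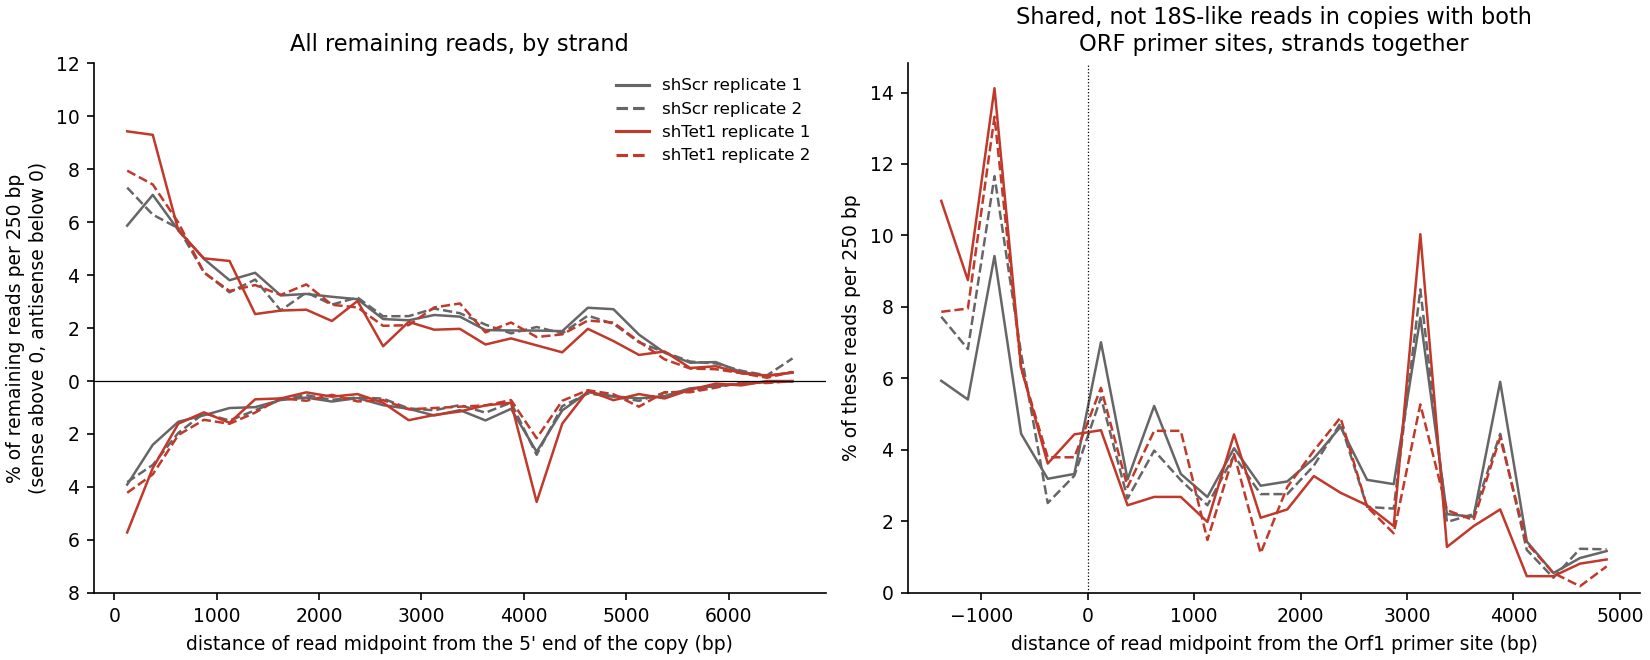
Left, percent of the remaining reads per 250 bp against distance of the read midpoint from the 5′ end of the copy, sense reads above 0 and antisense reads below 0, 1 line per library (grey shScr, red shTet1, solid replicate 1, dashed replicate 2). Right, percent per 250 bp against distance from the Orf1 primer site (dotted line at 0) for reads shared by at least 5 other copies and not 18S-like, in copies with 1 match to each ORF primer, end bins holding all reads beyond them. The red lines lie above the grey ones in the first 500 bp on both strands, and the antisense peak from 4000 to 4250 bp holds the reads that follow the 18S start.

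Reads of both strands contributed. Sense reads of the 5′ kilobase made up 23.2% and 23.5% of the remaining reads in shScr and 29.1% and 25.5% in shTet1, and antisense reads 9.15% and 10.2% against 11.8% and 11.2%. Within the 5′ kilobase the antisense share did not separate the groups, at 28.3% and 30.2% in shScr and 28.9% and 30.6% in shTet1. In the limma comparison of 500-bp bins by strand, 0 of 28 bins had an adjusted p under 0.05 (0% of those tested), and 0 had an unadjusted p under 0.05. The 2 bins with the smallest p in the upward direction were the first 500 bp in sense (log2 change 0.39, SE 0.17, limma adjusted p = 0.858) and in antisense (0.37, SE 0.17, adjusted p = 0.858). Sense reads of that bin numbered 1290 and 1359 per 10000 remaining reads in shScr and 1873 and 1537 in shTet1. They were also the only 2 of the 28 bins tested (7.14%) in which both shTet1 libraries lay above both shScr libraries. In 10 of the 28 bins (35.7%) both lay below, and all but 2 of these were sense bins past 1 kb. The bins are shares of the same total, so a higher share in some bins lowers the share of others. The smallest p downward belonged to sense reads from 5500 to 6000 bp (log2 change -0.46, SE 0.25) and from 4000 to 4500 bp (-0.32, SE 0.20), both with a limma adjusted p of 0.858.

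The first 500 bp were covered by many different reads. Among reads shared by at least 5 other copies and not 18S-like, the most frequent sequence there took 0.374% and 1.09% of the reads in the shScr libraries and 0.939% and 1.00% in the shTet1 libraries. These reads numbered 3205 and 3853 in shScr and 639 and 797 in shTet1, spread over 603 to 2836 copies per library. Among all remaining reads of that stretch, the most frequent sequence took 5.54% and 2.23% in shScr and 2.61% and 1.61% in shTet1.

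Counting each position, strand and length once gave the same order of libraries. The 5′ kilobase then held 30.8% and 34.9% of positions in shScr and 41.9% and 37.4% in shTet1, a difference of 6.79 percentage points (larger SD 3.16, exact permutation p = 0.333). At the depth of the smallest library, 3043 reads, it was 6.92. Restricted to shared reads that are not 18S-like, the share was 29.6% and 34.2% in shScr and 40.8% and 37.8% in shTet1, a difference of 7.41 percentage points (larger SD 3.30, exact permutation p = 0.333). The difference became smaller when read length was made equal between libraries (3.42 percentage points) and when replicate 1 of shTet1, the library with the shortest reads, was left out (3.71). With the 3 insert-bearing copies kept it was 2.48.

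By class, the higher 5′ share was seen in the young elements. For L1Md_A, reads in the 5′ kilobase were 37.1% (35.996 to 38.2) and 42.6% (41.4 to 43.8) of the class in shScr and 50.3% (47.1 to 53.6) and 48.5% (45.9 to 51.2) in shTet1. The difference of 9.57 percentage points exceeded the larger SD of 3.92, and it was 13.3 and 5.89 within replicate numbers. In L1Md_T the shares were 33.3% and 36.1% in shScr and 45.4% and 37.1% in shTet1. Here replicate 2 of shTet1 lay only 1.01 percentage points above its shScr counterpart, and its interval (34.7 to 39.6) included the value of shScr replicate 2. In L1Md_Gf, with 26 and 36 reads in the shTet1 libraries, the shares were 36.4% and 42.4% in shScr and 53.8% and 47.2% in shTet1, with intervals that overlapped. For these 3 classes both shTet1 libraries lay above both shScr libraries (exact permutation p = 0.333 for each). In L1Md_T the shTet2 libraries were at 37.7% and 38.2%, also above both shScr libraries and above replicate 2 of shTet1. In L1Md_A (46.3% and 41.2%) and L1Md_Gf (44.1% and 41.1%) the shTet2 libraries overlapped the shScr libraries.

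In the other classes the groups overlapped when every read was counted. In L1Md_F2, the largest of the F classes, the 5′ kilobase held 26.7% and 19.3% in shScr and 27.01% and 19.9% in shTet1, so that the libraries grouped by replicate number and not by hairpin. Among shared reads that are not 18S-like, this class gave 17.2% and 17.5% in shScr and 16.99% and 18.7% in shTet1. In L1Md_F3 the shares were 33.9% and 25.3% against 37.0% and 33.8%, with overlap. The shared reads of L1Md_F3 gave 22.8% and 20.5% against 25.8% and 27.9%, without overlap. In the remaining, older classes as a group the shares were 24.3% and 23.9% in shScr and 24.1% and 20.4% in shTet1. In L1Md_F the shares were 9.16% and 6.70% against 7.07% and 13.6%. Once every position was counted a single time, however, the groups were apart in the F classes too, with 17.6% and 13.2% against 21.9% and 21.9% in L1Md_F, 20.5% and 19.9% against 23.8% and 20.8% in L1Md_F2, and 27.02% and 24.9% against 34.2% and 32.5% in L1Md_F3. The older classes still overlapped. Whether the difference between knockdown and control itself differed between classes was not tested.

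**Figure D2:**
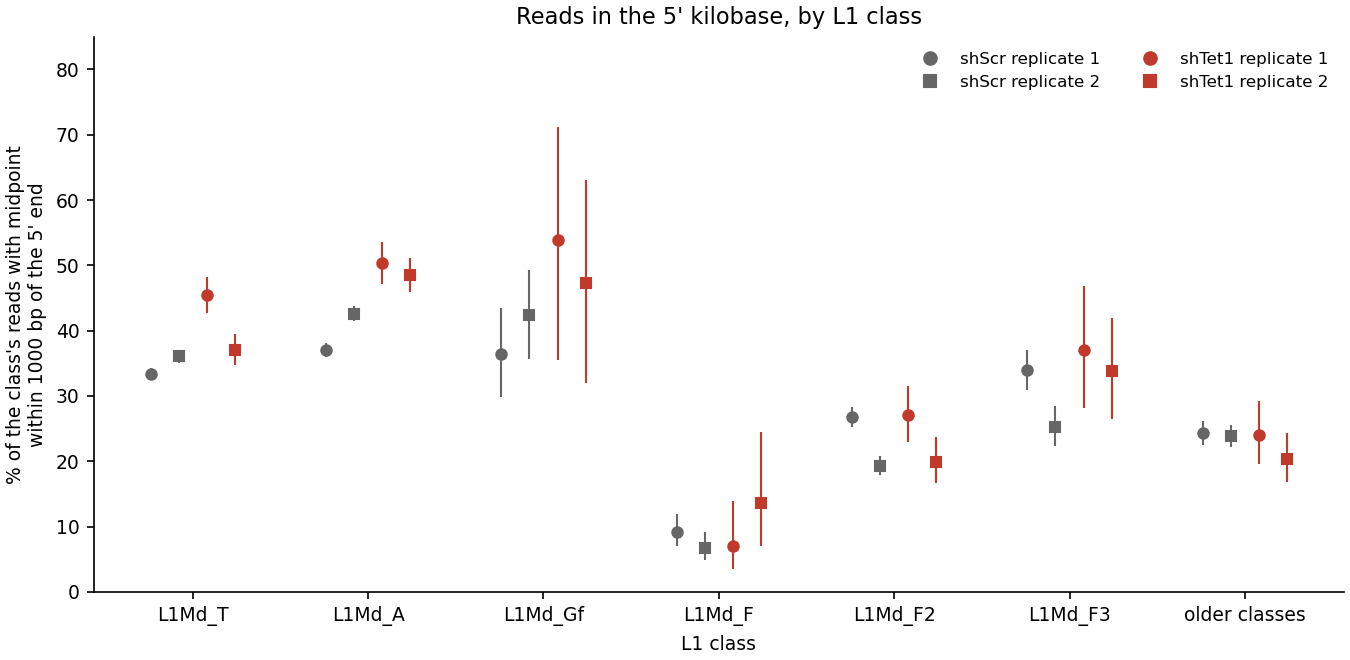
Percent of the reads of each L1 class with their midpoint within 1000 bp of the 5′ end of the copy, 1 point per library (grey shScr, red shTet1, circle replicate 1, square replicate 2), with 95% Wilson intervals that cover counting error only. Both red points lie above both grey points in L1Md_T, L1Md_A and L1Md_Gf, while with every read counted the groups overlap in L1Md_F, L1Md_F2, L1Md_F3 and the older classes.

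The classes took similar shares of the remaining reads in both groups. L1Md_T took 39.5% and 40.0% in shScr and 39.3% and 37.2% in shTet1 (log2 change -0.0011, SE 0.07, limma adjusted p = 0.988). L1Md_A took 31.7% and 30.1% against 29.9% and 34.0% (log2 change 0.12, SE 0.09, limma adjusted p = 0.840). L1Md_F2 took 13.5% and 12.5% against 13.9% and 12.1%, L1Md_F3 3.81% and 3.42% against 3.29% and 3.53%, and L1Md_F 2.13% and 2.33% against 3.25% and 1.47%. L1Md_Gf took between 0.775% and 0.894% of every library. Of 21 classes tested with limma, 0 had an adjusted p under 0.05 (0% of those tested), and 2 had an unadjusted p under 0.05. These were Lx2B (log2 change 1.03, SE 0.31, limma adjusted p = 0.201) and L1VL2 (0.97, SE 0.31, adjusted p = 0.201), old classes with 19 and 14 reads and with 17 and 17 reads in shScr, and with 4 and 5 reads each in shTet1.

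When every position, strand and length was counted a single time, 3 of 21 classes had a limma adjusted p under 0.05, and all were higher in shTet1. They were L1VL2 (log2 change 0.98, SE 0.22, adjusted p = 0.025), Lx2B (0.98, SE 0.21, adjusted p = 0.025) and L1VL1 (1.197, SE 0.32, adjusted p = 0.042). The counts behind them were small. L1VL1 had 23 and 30 positions in shScr and 8 and 12 in shTet1, and Lx2B had 15 and 14 against 4 and 5. In L1VL1 the 93 and 224 reads of the shScr libraries fell on these few positions. All reads counted gave a log2 change of 0.25 there (limma adjusted p = 0.988). In the shTet1 libraries, 19 and 30 reads of L1VL1 fell on its 8 and 12 positions. Whether the larger size of the shScr libraries bears on the values counted once was not tested. The log2 changes of L1VL2 and Lx2B were near those with all reads counted (0.97 and 1.03). The class calls were not repeated at equal depth. In 4 of the 21 classes tested (19%) both shTet1 libraries lay above both shScr libraries by share, L1VL2, L1_Mur1, Lx and Lx2B, and in 2 (9.52%) below, L1Md_T and Lx3A.

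Antisense reads made up 27.5% and 27.8% of the remaining reads in shScr and 31.8% and 28.1% in shTet1. The difference of 2.31 percentage points was within the larger SD of 2.61 (exact permutation p = 0.333), and within replicate numbers it was 4.32 and 0.303. It was 0.440 with read lengths weighted alike and 0.467 without replicate 1 of shTet1, and the reads within 3 differences of the 18S start bear on it, since 99.0% to 100% of them were antisense. These reads made up 3.53% and 3.39% of the shScr libraries and 6.70% and 2.56% of the shTet1 libraries, and without them the antisense difference was 1.51 percentage points.

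In L1Md_T the antisense share was higher in both shTet1 libraries. Antisense reads made up 24.9% and 27.5% of the reads in shScr and 32.2% and 31.2% in shTet1, a difference of 5.49 percentage points (larger SD 1.84, exact permutation p = 0.333) that was 7.30 and 3.68 within replicate numbers. The shTet2 libraries were at 30.9% and 30.1%, also above both shScr libraries. Shared reads of L1Md_T that are not 18S-like gave 25.2% and 27.9% against 32.9% and 30.8%, and counted once by position 24.6% and 27.6% against 31.8% and 31.1%. This set still holds reads 6 and 7, which follow the 18S start and were all antisense. Of these reads, 40.1% and 35.5% lay in L1Md_T. The antisense share of L1Md_T without every read near the 18S start was not computed. In L1Md_A the antisense share was 14.1% and 15.6% in shScr and 15.2% and 15.6% in shTet1, with overlap. Both shTet1 libraries were thus above both shScr libraries in L1Md_T and not in L1Md_A, a contrast that was not itself tested.

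Replicate 1 of shTet1 held shorter reads than the other 3 libraries compared. Its mean read length was 23.9 nt, against 29.1 nt in replicate 2 of shTet1 and 31.1 and 29.4 nt in shScr. Reads of 15 to 17 nt made up 30.4% of that library and between 16.8% and 18.5% of the other 3. The difference in mean length between groups was -3.73 nt, with a larger SD of 3.70 nt (exact permutation p = 0.333), and within replicate 2 it was -0.269 nt. Among reads of 18 to 32 nt only, the mean length differed by -0.657 nt and the share of the 5′ kilobase by 5.62 percentage points, beside 5.78 over all lengths and 3.42 with length classes weighted alike.

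Dicer-sized reads of 21 to 23 nt made up 9.23% and 10.1% of the remaining reads in shScr and 11.3% and 10.6% in shTet1, a difference of 1.26 percentage points (larger SD 0.608, exact permutation p = 0.333). Among reads of 18 to 32 nt only, the direction turned and the difference was -0.387. Reads of Piwi-interacting RNA length, 24 to 32 nt, made up 20.9% and 20.4% in shScr and 20.2% and 22.0% in shTet1, with overlap. In L1Md_T they made up 21.3% and 21.8% in shScr and 23.1% and 23.8% in shTet1, 1.84 and 1.99 percentage points higher within replicate numbers (larger SD 0.484, exact permutation p = 0.333). In L1Md_Gf they made up 25.1% and 20.9% against 30.8% and 30.6%, on 26 and 36 shTet1 reads. The order was the reverse in L1Md_F2 (18.5% and 18.3% in shScr, 13.7% and 17.7% in shTet1) and in L1Md_F3 (20.8% and 19.7% against 16% and 17.6%), without overlap, and the groups overlapped in L1Md_A and L1Md_F.

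Within the length classes the 5′ share varied less evenly. Of reads of 24 to 32 nt, the 5′ kilobase held 31.3% and 33.4% in shScr and 45.5% and 37.0% in shTet1, a difference of 8.91 percentage points (larger SD 6.04, exact permutation p = 0.333). Of reads of 33 to 50 nt it held 24.1% and 22.95% against 31.9% and 27.6%, and of reads of 21 to 23 nt 41.6% and 46.0% against 49.9% and 47.8%. In these 3 classes both shTet1 libraries lay above both shScr libraries. The shTet2 libraries did so too, with 38.3% and 34.5% at 24 to 32 nt and 49.8% and 50.1% at 21 to 23 nt. At 33 to 50 nt they had 26.97% and 24.07%, the latter barely above replicate 1 of shScr (24.05%). In reads of 15 to 17 nt (55.3% and 42.8% against 47.8% and 43.0%), of 18 to 20 nt (28.4% and 42.0% against 32.2% and 45.7%) and of 51 to 76 nt (17.5% and 13.8% against 4.94% and 15.7%) the groups overlapped. The antisense share of reads of 24 to 32 nt was 24.6% and 23.5% in shScr and 28.9% and 26.1% in shTet1, higher by 3.49 percentage points (larger SD 1.99, exact permutation p = 0.333). It was lower in both shTet1 libraries among reads of 18 to 20 nt (48.4% and 47.5% against 43.1% and 44.9%) and of 51 to 76 nt (17.1% and 10.995% against 8.64% and 9.85%), and the groups overlapped in the other 3 length classes.

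**Figure D3:**
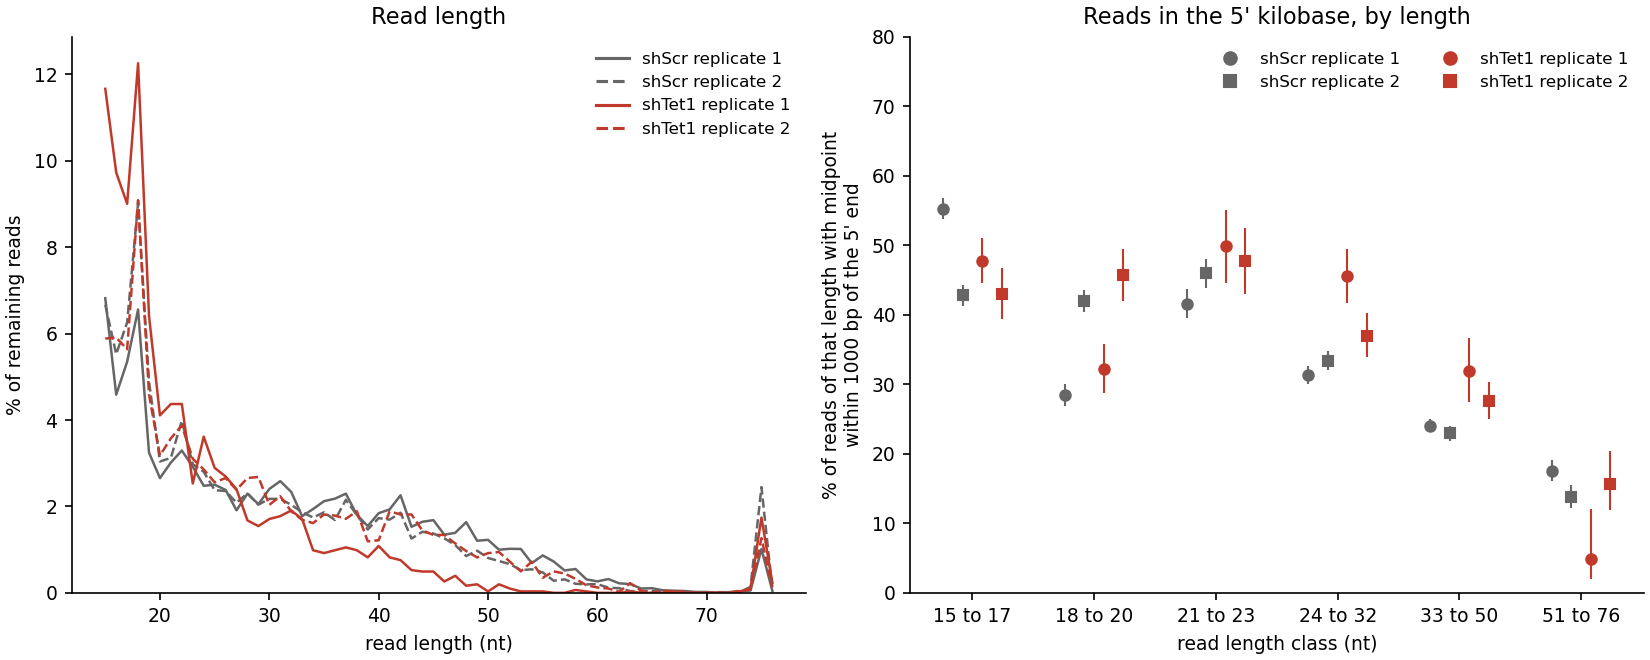
Left, percent of the remaining reads at each read length in nt, 1 line per library (grey shScr, red shTet1, solid replicate 1, dashed replicate 2), with replicate 1 of shTet1 above the other 3 libraries at 15 to 18 nt. Right, percent of the reads of each length class with their midpoint within 1000 bp of the 5′ end, 1 point per library (circle replicate 1, square replicate 2) with 95% Wilson intervals, the red points lying above the grey ones at 21 to 50 nt.

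Piwi-interacting RNAs often begin with U, and partners made by the ping-pong cycle carry A at the tenth base. Antisense reads of 24 to 32 nt began with T in 37.0% and 38.9% in shScr and in 30.3% and 42.4% in shTet1, so the shTet1 libraries lay on either side of the controls. Sense reads of that length had A at the tenth base in 37.4% and 36.5% in shScr and in 32.3% and 36.4% in shTet1. Over all lengths, reads that began with C made up 18.1% and 17.3% in shScr and 23.8% and 20.2% in shTet1, a difference of 4.36 percentage points (larger SD 2.54), and reads that began with G 16.4% and 15.7% against 14.7% and 14.7%, a difference of -1.35 (larger SD 0.476). The groups did not overlap for either base (exact permutation p = 0.333 for both).

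Of the recurring reads, 3 were found mainly in libraries of 1 replicate number. Read 5 numbered 257 and 2 in the shScr libraries and 20 and 0 in the shTet1 libraries, read 9 numbered 168 and 4 against 22 and 0, and read 11 numbered 103 and 6 against 10 and 1. All 3 are rich in G and C (76.5% to 86.7%) and were found almost entirely in replicate 1 of each group. Read 2, placed antisense in 1 L1Md_F copy, numbered 149 and 186 in shScr and 43 and 18 in shTet1, which is 61.7 and 82.9 against 141 and 44.7 per 10000 remaining reads. Read 1 numbered 65.5 and 96.3 per 10000 in shScr and 29.6 and 79.5 in shTet1. For none of the 12 did both shTet1 libraries lie above both shScr libraries. The 12 were ranked by reads summed over the 4 libraries, and most of these are shScr reads. The list thus favours sequences that are high in shScr. Read 12 was the lowest in shTet1, with 91 and 23 reads in shScr and 0 and 2 in shTet1 (log2 change -2.79, SE 1.34, limma adjusted p = 0.982). Of 70 read sequences tested, 0 had an adjusted p under 0.05 (0%) and 1 had an unadjusted p under 0.05. Both shTet1 libraries lay above both shScr libraries for 4 of the 70 (5.71%) and below them for 21 (30%). The filter of 10 reads in 2 libraries is reached more easily in the larger shScr libraries, which favours sequences that are high there. These 2 counts are therefore not read as a direction. Together the 12 made up 6.31% and 4.78% of the remaining reads in shScr and 7.56% and 3.43% in shTet1.

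**Figure D4:**
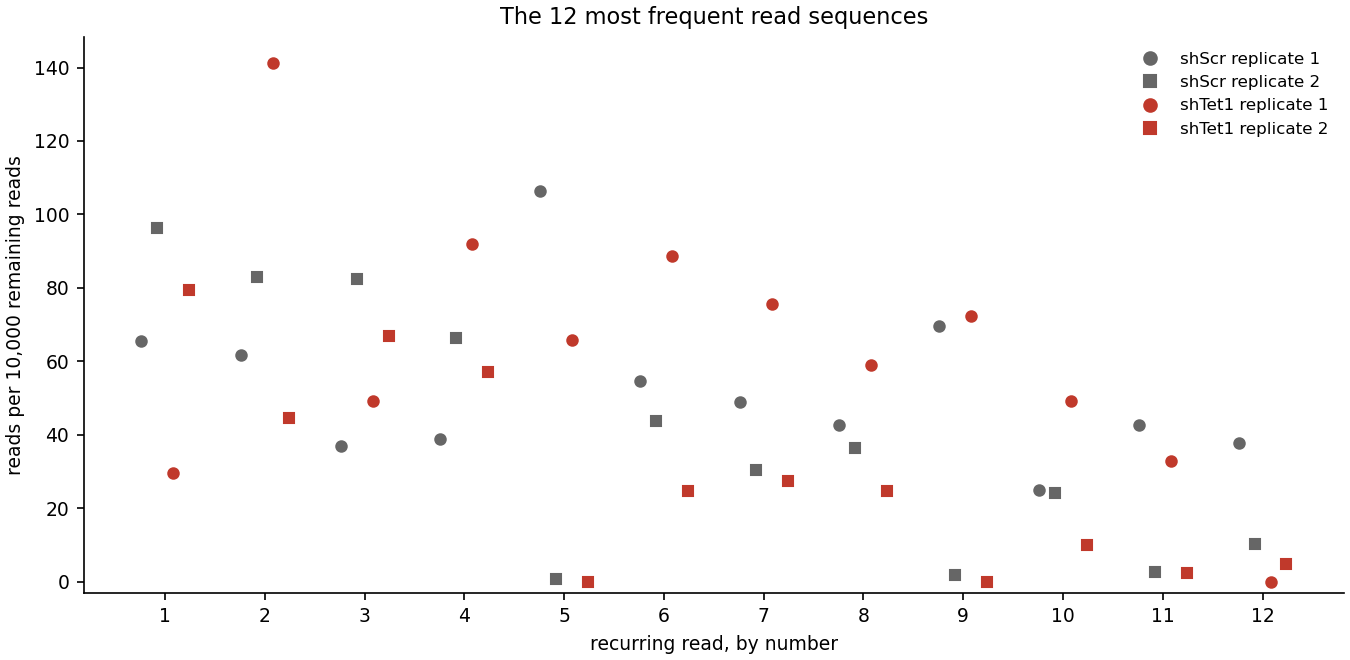
Reads per 10000 remaining reads for the 12 most frequent read sequences, numbered by their rank over the 4 libraries, 1 point per library (grey shScr, red shTet1, circle replicate 1, square replicate 2). Reads 5, 9 and 11 are high in the replicate 1 libraries of both groups and near 0 in the replicate 2 libraries, and reads 2, 6, 7, 8 and 10, which follow the start of 18S RNA, are highest in replicate 1 of shTet1.

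Reads that fit 18S RNA at least as well as their L1 copy numbered 589 and 380 in shScr and 108 and 53 in shTet1, or 2.44% and 1.69% against 3.55% and 1.32% of the remaining reads. The same criterion applied to the reverse strand of 18S RNA found 0 reads, so these reads ran in the direction of the ribosomal RNA. At its first base began 245 and 231 of them in shScr and 59 and 30 in shTet1. Among the 4 libraries compared, their share was highest in replicate 1 of shTet1 and lowest in replicate 2 of shTet1, on either side of the controls. In shTet2 they numbered 1114 of 17888 remaining reads in replicate 1 and 90 of 5472 in replicate 2.

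Reads were spread thinly over single copies. Reads lay in 9881 and 9401 copies in the shScr libraries and in 2325 and 3057 copies in the shTet1 libraries, and 85.2% and 81.6% of the latter held a single read. Of 89 copies tested with limma, 0 had an adjusted p under 0.05 (0%), and 0 had an unadjusted p under 0.05. In 9 of the 89 (10.1%) both shTet1 libraries lay above both shScr libraries and in 10 (11.2%) below. The 10 copies with the most reads held 4.55% and 5.58% of the shScr reads and 5.52% and 3.90% of the shTet1 reads. They were ranked by summed reads, so this list also favours copies that are high in shScr.

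Several of these 10 copies owed their rank to 1 recurring sequence. The copy with the most reads, an L1Md_F element at chr19:14185248-14190394 (mm9, plus strand, in no annotated gene), held 226 and 253 reads in shScr and 60 and 24 in shTet1. All were antisense, with a median 4072 bp from the 5′ end, and 70.3% were read 2. An L1Md_T copy at chr10:105524900-105531249 held 254 and 8 reads in shScr and 32 and 1 in shTet1, and 96.9% of them were 18S-like. Read 1 led in an L1Md_T copy at chr6:18273741-18279003, which held 47.7 and 78.4 reads per 10000 in shScr and 32.9 and 57.1 in shTet1.

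Others held many different reads that few L1 copies share. A copy of the class Lx5 at chr3:119410156-119415256 held 104 and 103 reads in shScr and 11 and 19 in shTet1, of 206 sequences, 0% of them shared. An L1Md_T copy at chr6:56190526-56197456, in an intron of Pde1c and on the same strand as this phosphodiesterase gene, held 97 and 107 against 10 and 13 reads, 40.2 and 47.7 against 32.9 and 32.3 per 10000. These reads had a median distance of 6892.5 bp from the 5′ end of a copy that spans 6931 bp, and 1.32% were shared. An L1Md_T copy at chr4:62586188-62592885 held 42 and 159 reads against 7 and 12, likewise near its 3′ end. The 3 single loci that the study followed held too few reads to compare, with 3 and 4 in shScr and 0 and 2 in shTet1 for HL1-2, 2 and 3 against 0 and 0 for HL1-6, and 2 and 1 against 1 and 1 for HL1-7.

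The number of remaining reads itself was lower in both shTet1 libraries, by 2.73 on the log2 scale on average (exact permutation p = 0.333). The totals of the libraries before L1 reads were picked out were not used here, and sequencing depth and the amount of L1-derived RNA cannot be told apart. A count of 3 reads corresponds to 0.0124% and 0.0134% of the shScr libraries and to 0.0986% and 0.0745% of the shTet1 libraries, and shares below this are uncertain at this depth.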

How the data were processed

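Small RNA reads of at least 15 nt were kept by the authors (Trim Galore 0.3.3) and aligned to mm9 with Bowtie2 2.1.0, where a read with several equally good places goes to a random one. The deposited files hold 1 read per line inside an L1 copy, with no count, score or other measured value, and how the copies were picked is not given in the sources used here. Reads were tallied by class, copy, 500-bp bin and strand, and sequence. A read was called shared when its 15-nt words lie in at least 5 other copies (median) and it is not A/T-rich, and 18S-like when it fits 18S RNA with at most 3 differences and no worse than its L1 place. Shares were compared by exact permutation over libraries. Tallies were compared with limma 3.58.1 (voom, R 4.3.3) on all 6 libraries, with TMM factors and Benjamini-Hochberg adjustment, for features that reached 10 reads in 2 libraries. On simulated tallies (dispersion 0.05), a log2 change of 1 was recovered in 45.0% of changed bins (28 tested) and 30.0% of changed classes (21 tested). It was recovered in 7.56% of changed copies (89 tested) and 6.68% of changed read sequences (70 tested). The dispersion was set and not estimated from these data, where some copies and sequences differed far more between libraries of a group. These rates therefore do not give the power of the tests made here. Named were the young and F classes, the 2 bins with the smallest p in each direction, the 10 copies and 12 sequences with most reads, and 3 loci of the study. L1VL1, L1VL2, Lx2B and the classes without overlap were named after their values were seen. The reads, lists and tests were chosen with earlier results of these data known. Genes are from GENCODE for mm9.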

Additional observations from a re-analysis of the deposited data

How the results depend on the processing

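The share of reads in the 5′ kilobase stayed higher in shTet1 under every alternative run, from 2.48 percentage points with the 3 copies kept to 7.86 for shared reads that are not 18S-like counted once, and from 3.71 to 7.85 with 1 library left out. Differences ranged from 0.467 to 4.16 for antisense reads, from 0.826 to 1.69 for 21 to 23 nt, from -0.440 to 1.30 for 24 to 32 nt, from -6.35 to -1.11 nt for mean length and from -2.93 to -2.53 on the log2 scale for remaining reads when 1 library was left out. Alternatives that moved a value past its spread were counting each sequence once (remaining reads, -2.40), reads of 18 to 32 nt only (-0.387 for 21 to 23 nt and -5.18 for 24 to 32 nt) and keeping the 3 copies (0.526 and 1.75, and 2.48 in place of 5.78 for the 5′ kilobase). By construction, the second changes the denominator and the third adds the insert reads. The cause of the first was not tested. Versions that treat 18S-like or shared reads apart, or weight lengths alike, were chosen after seeing the data.

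Limma called 0 classes, bins, copies and sequences, also with the replicate number as a block, with 2 exceptions. Counting once called 3 classes, without bringing the libraries to equal depth. Without a filter on low counts 4915 of 48796 sequences were called, 4849 of them higher in shTet1, of which 4408 had 1 read in all 6 libraries and 4846 had 0 reads in both shScr libraries. With the replicate number as a block the mean 5′ difference was 5.78 (exact paired p = 0.5, the smallest for 2 pairs) and the smallest limma adjusted p was 0.169 for classes, 0.564 for bins, 0.998 for copies and 0.206 for sequences. Deviations of same-numbered shScr and shTet1 libraries correlated at 0.0722 over classes, -0.0579 over bins, 0.595 over copies and 0.536 over sequences. Pairs with shTet2 libraries correlated at 0.590 to 0.627 over copies and sequences, so same-numbered libraries deviated together there. Over classes, shTet2 correlated at 0.597 with shScr and at 0.404 with shTet1. Over bins it correlated at -0.066 with shScr and at 0.690 with shTet1, so same-numbered shTet1 and shTet2 libraries deviated together over bins too. The labels do not say what a number marks, and the comparison has only 2 pairs, so it was not treated as paired.

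Class changes near 0 turned direction, none of the values that follow past the threshold. L1Md_T was 0.045 without A-rich or T-rich reads and ranged from -0.039 to 0.037 with a library left out. L1Md_A was -0.031 with only the 4 libraries, -0.091 without a filter, -0.090 counted once, -0.028 at 18 to 32 nt and -0.0020 with the 3 copies kept, and ranged from -0.037 to 0.24. L1Md_Gf was -0.034 without a filter and -0.051 counted once. L1Md_F was -0.11 with only the 4 libraries, -0.040 without TMM, -0.22 without a filter, -0.12 counted once, -0.22 by sequence, -0.21 at 18 to 32 nt, -0.051 for shared reads, -0.10 with the 3 copies kept, -0.19 without reads near the 18S start, -0.091 without 18S-like reads and -0.048 for shared reads without these, and ranged from -0.49 to 0.57. L1Md_F2 was -0.11, -0.017, -0.17, -0.049, -0.19, -0.10, -0.11, -0.39, -0.016, -0.096 and -0.13 in the same order and -0.12 for the last with the replicate block, and ranged from -0.0043 to 0.10. L1Md_F3 was 0.014 without A-rich or T-rich reads and ranged from -0.12 to 0.068. L1VL1 was -1.48 at 18 to 32 nt, -0.048 for shared reads, -0.047 and, with the block, -0.15 for shared reads that are not 18S-like, and ranged from -0.49 to 0.93.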
